A study of Mus musculus with 22 samples.

Results

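The genes described here are 35 mouse liver genes of fatty acid oxidation and ketone body formation, together with the receptor PPAR-alpha and some of its best known targets. They were chosen by symbol, as the rows of the deposited count table whose Ensembl identifier maps to a symbol on a fixed list, and all 35 were found among the 53392 rows of the table and among the 15928 genes with enough counts to be tested. The study asked how the gut microbiome and pregnancy act on the liver's drug-processing genes. Liver RNA from 22 female C57BL/6 mice was sequenced, 1 library per mouse. The 5 germ-free pregnant mice were raised without microbes and were mated over 72 h, so their gestation day 15 is an assumed one. The 5 conventional pregnant mice carried an ordinary microbiota and were mated overnight before collection on gestation day 15. The 6 germ-free and the 6 conventional non-pregnant mice were the matching females that were not pregnant. Recorded ages, whose unit the labels do not state, were 91 to 121 in the germ-free pregnant mice, 70 to 77 in the conventional pregnant mice, 92 to 105 in the germ-free non-pregnant mice and 70 to 77 in the conventional non-pregnant mice. Germ-free and conventional mice therefore did not overlap in age, and the effect of age cannot be told apart from that of the missing microbiota. All 4 groups were kept on the same autoclaved chow, given ad libitum.

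Fatty acids that reach the liver are activated to acyl-CoA thioesters and are then either stored or burned. Long chains enter mitochondria on carnitine and are shortened by beta-oxidation, very long chains are first shortened in peroxisomes, and the acetyl-CoA that is not burned in the liver leaves as ketone bodies. PPAR-alpha, a nuclear receptor that binds fatty acids, switches on most of these genes during fasting, and CREB-H, encoded by Creb3l3, works beside it to release the hormone FGF21. In late pregnancy the maternal liver is known for a readier turn to fat burning and ketone production during fasting.

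Levels are given as CPM, the counts of a gene scaled to a library of fixed size, and levels of different genes are compared only in CPM per kilobase of exon. On that scale Fabp1, the liver fatty acid-binding protein, stood far above the other members, with a median of 6360 CPM per kilobase in conventional non-pregnant mice. It was followed there by the mitochondrial thiolase gene Acaa2 at 462, the electron carrier subunit gene Etfb at 461 and the peroxisomal thiolase gene Acaa1b at 384 CPM per kilobase. The median of Acaa1b was 95.8 CPM per kilobase in germ-free pregnant mice and 170.0 in conventional pregnant mice, against 374 in germ-free non-pregnant mice. At the bottom in conventional non-pregnant mice lay Fgf21 at 0.422 and Pdk4, an inhibitor of pyruvate oxidation, at 0.615 CPM per kilobase.

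Library totals lay between 18064491 and 30036912 estimated counts, of which mitochondrially encoded genes took 5.9% to 32%. Hepatocyte markers, none of the 6 at 0, summed to 50700 CPM or more in every library, as the label of liver would have it. The mice were separate animals, so p-values measure the spread between mice. Conventional pregnant replicate 2 stood apart. It had 2050 CPM of Saa1 and 2160 CPM of Saa2, acute-phase genes that elsewhere reached no more than 62.2 and 43.5 CPM. Its 6 neutrophil markers summed to 24.9 CPM against 3.49 CPM or less elsewhere, and its Kupffer cell markers summed to 1300 CPM against 613 CPM or less. It held the lowest level of its group for 29 of the 35 members, while conventional pregnant replicate 3 held the highest for 25. Germ-free non-pregnant replicate 2 was lowest in its group for 23 of the 35 and conventional non-pregnant replicate 2 for 18.

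**Figure D1:**
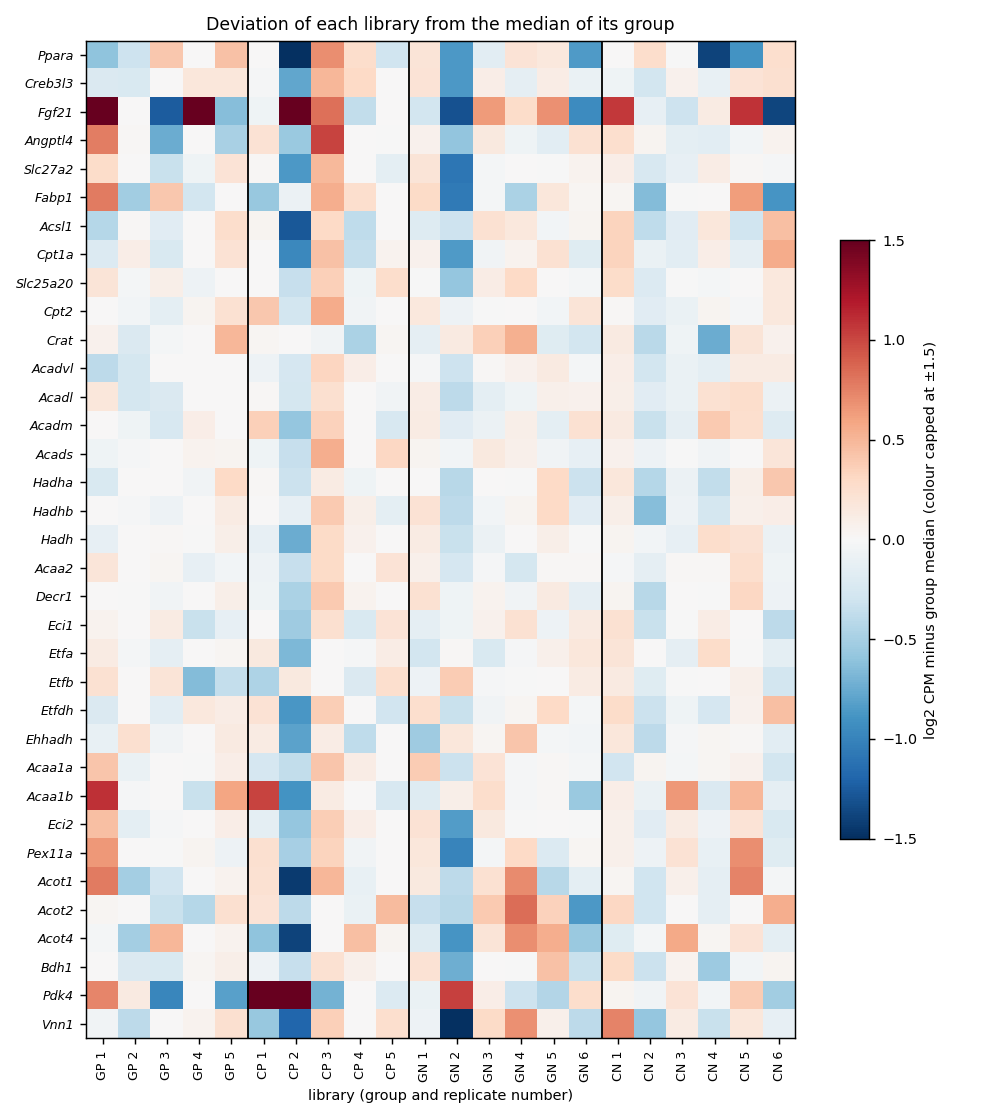
Heat map of each library's log2 CPM minus the median of its own group for the 35 members (rows), with libraries in columns (GP germ-free pregnant, CP conventional pregnant, GN germ-free non-pregnant, CN conventional non-pregnant, each with its replicate number) and colours capped at 1.5 log2 units. Blue columns mark libraries low for many members at once: CP 2 was lowest of its group for 29 members and GN 2 for 23.

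Pregnancy changed a few members strongly, while most did not pass the test. In germ-free mice 5 of 35 members passed (14.3%), 2 higher and 3 lower, where 10.8% of all 15928 tested genes did (7.15% higher and 3.6% lower). In conventional mice 4 of 35 passed (11.4%), 3 higher and 1 lower, where 9.02% of all tested genes did (5.49% higher and 3.52% lower). By edgeR both shares of members were near the background. The split moved with the method. With relative-log-expression scaling it was 3 higher and 2 lower in conventional mice, because Eci1 was then called as well. DESeq2 called 4 higher and 4 lower in germ-free mice and 3 higher and 6 lower in conventional mice. Over all 15928 tested genes it called 2129 in germ-free and 1886 in conventional mice. By DESeq2 the shares of members thus lay further above the background than by edgeR. Without conventional pregnant replicate 3 the conventional split was 2 higher and 4 lower, beside 809 and 548 of all tested genes. A gene counts as called, and is said to rise or fall, when its adjusted p from edgeR's quasi-likelihood test with Benjamini-Hochberg adjustment over all tested genes was under 0.05. The median log2 change of the members was 0.04 in germ-free mice, beside -0.02 for all tested genes, and 0.09 in conventional mice, beside 0.04.

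Crat and Acot4 rose and Acaa1b fell in both pregnancy comparisons, so 3 of 35 members (8.57%) were called the same way in both, beside 868 of all 15928 tested genes (5.45%). The sign of the change was the same in both comparisons for 30 of 35 members (85.7%) and for 10964 of 15928 genes (68.8%); the 2 comparisons share no library. Because no member's response to pregnancy passed a test for a difference between germ-free and conventional mice (0 of 35 called, beside 0% of all tested genes), the mean of both pregnancy changes was also tested, a contrast added after the data had been seen. In this averaged comparison 13 of 35 members passed (37.1%), 5 higher and 8 lower, where 20.2% of all tested genes passed (11.8% higher and 8.39% lower). Without conventional pregnant replicate 2 the split was 11 higher and 6 lower. Without that library and germ-free non-pregnant replicate 2 together, Acads, Hadh, Acsl1, Acot1 and Vnn1 were called higher and Eci2 lower in addition, and Etfa was not called. The median log2 change of the 35 members was 0.08, beside 0.01 for all tested genes.

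**Figure D2:**
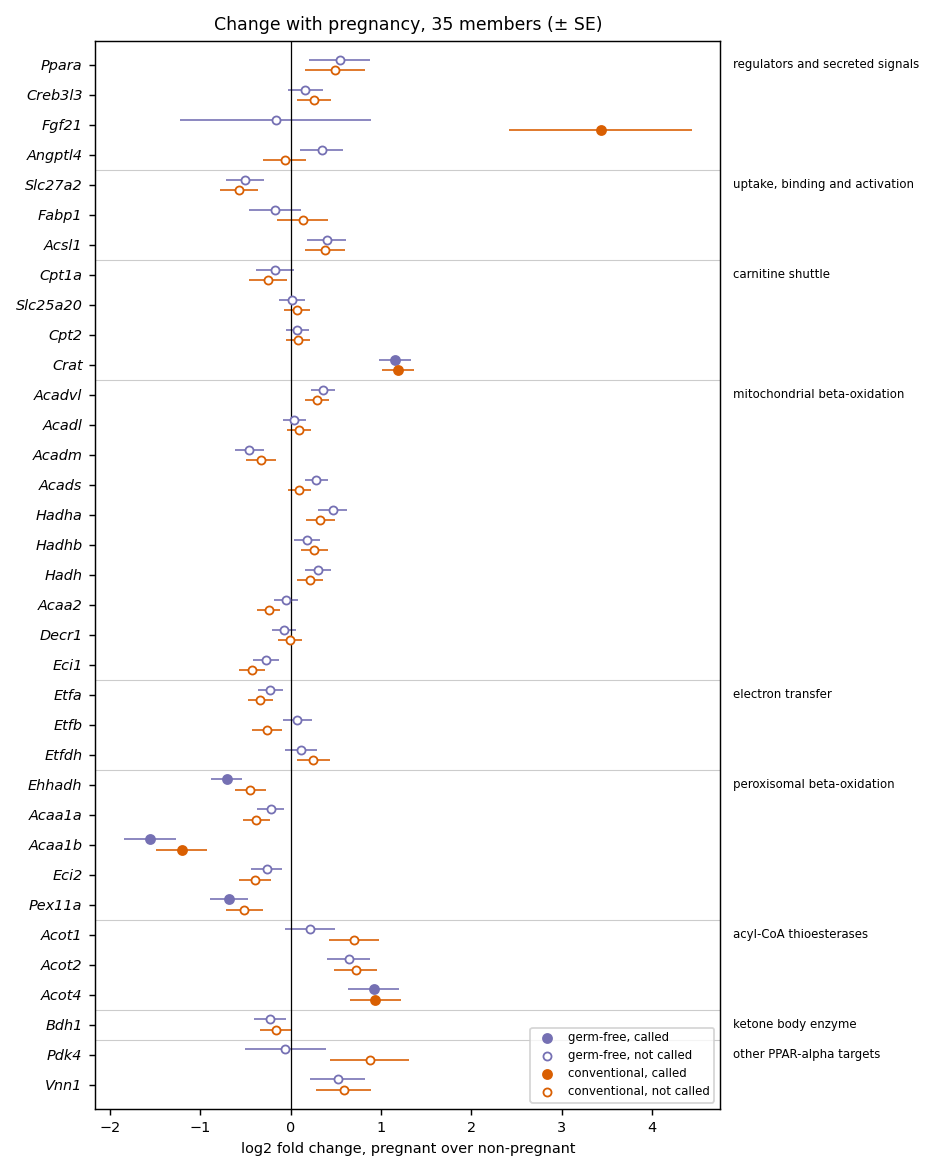
Log2 fold change with pregnancy (x axis, pregnant over non-pregnant, ± SE) for the 35 members in rows, grouped by role, in germ-free mice (purple, 5 pregnant against 6 non-pregnant) and conventional mice (orange, 5 against 6). Filled points passed the adjusted p threshold of 0.05: Crat and Acot4 lie right of 0 and Acaa1b left of 0 in both. All 5 genes under peroxisomal beta-oxidation lie left of 0 and all 3 thioesterase genes, the peroxisomal Acot4 included, right of it.

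Other measures moved with pregnancy beside these genes. Erythroid markers, none of them at 0 in every library, were called higher for 6 of 6 genes in germ-free mice and for 2 of 6 in conventional mice. Their summed level was 1170 to 2490 CPM in germ-free pregnant mice against 166 to 1220 CPM in germ-free non-pregnant mice, and 240 to 1570 CPM in conventional pregnant mice against 302 to 553 CPM in conventional non-pregnant mice. Hepatocyte markers summed to 122000 to 186000 CPM in germ-free pregnant mice against 50700 to 85300 CPM in germ-free non-pregnant mice, and to 66100 to 233000 CPM in conventional pregnant mice against 57200 to 84400 CPM in conventional non-pregnant mice. Called were 4 of 6 higher and 1 lower in germ-free mice and 2 higher and 1 lower in conventional mice. Alb made up most of these sums. It averaged 116400 CPM in germ-free pregnant and 53110 CPM in germ-free non-pregnant mice, and 123800 and 52160 CPM in conventional ones. The mean of Ttr was lower in pregnancy, at 1134 against 3654 CPM in germ-free mice and 1400 against 3852 CPM in conventional mice. A list of 18 genes that follow the clock or feeding summed to 2060 to 3200 CPM in germ-free pregnant mice against 2820 to 3800 CPM in germ-free non-pregnant mice, and to 1080 to 1810 CPM in conventional pregnant mice against 2270 to 2940 CPM in conventional non-pregnant mice. Pck1 made up a large part of these sums. It averaged 1627 CPM in germ-free pregnant, 2006 CPM in germ-free non-pregnant, 692.6 CPM in conventional pregnant and 1383 CPM in conventional non-pregnant mice. The sums can hide clock genes that differ between mice. Dbp spanned 118 to 207 CPM in germ-free pregnant and 41.8 to 236 CPM in germ-free non-pregnant mice. In conventional mice it spanned 10.6 to 239 CPM in pregnancy and 144 to 238 CPM outside it. Arntl spanned 0.367 to 2.66 and 0.239 to 2.51 CPM in the germ-free groups, and 0.383 to 6.92 and 0.0889 to 1.38 CPM in the conventional ones, pregnant first. Of these 18 genes, 6 had positive and 12 negative changes in germ-free mice, and 5 and 13 in conventional mice. Only 3 fell by the test in germ-free mice, and 2 rose and 2 fell in conventional mice. Of all tested genes 10.8% were called in germ-free and 9.02% in conventional mice. The part of these shifts in the changes of the members was not tested. In bulk liver RNA, fewer cells of a type and less RNA per cell cannot be told apart.

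All 5 genes listed under peroxisomal beta-oxidation had negative changes with pregnancy in both comparisons. Acot4, grouped with the thioesterases although its product is also peroxisomal, rose in both. Of the 5 listed genes, 3 fell in germ-free mice, 1 in conventional mice and 4 in the averaged comparison. Of all tested genes 3.6%, 3.52% and 8.39% fell, in that order. DESeq2 called Ehhadh and Acaa1a lower in conventional mice as well (adjusted p = 0.0413 and 0.0468). The medians over the 5 were -0.69, -0.45 and -0.58 on the log2 scale. Acaa1b (ENSMUSG00000010651.4, GRCm38 chromosome 9, 119148023 to 119157093, minus strand) encodes the thiolase that releases acetyl-CoA at the last step of each peroxisomal cycle. Its level was 401, 186, 188, 149 and 284 CPM in the 5 germ-free pregnant mice, against a lowest, median and highest of 498, 733 and 882 CPM in the 6 germ-free non-pregnant mice. Every germ-free pregnant liver lay below every germ-free non-pregnant one, and the level fell by 1.56 ± 0.29 on the log2 scale (SE; adjusted p = 0.000802). It was 675, 179, 364, 334 and 282 CPM in the 5 conventional pregnant mice, against 648, 754 and 1182 CPM in conventional non-pregnant mice. Here only the first pregnant replicate reached into the non-pregnant range, and the level fell by 1.21 ± 0.29 (adjusted p = 0.00858), or by 1.03 (adjusted p = 0.0241) without conventional pregnant replicate 2.

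Acaa1b lies on the same chromosome as Acaa1a (chromosome 9, 119339676 to 119350299, plus strand), the other peroxisomal thiolase gene, and reads of the pair can be hard to assign. Their open reading frames, read from GENCODE M21 transcripts, are both 1275 bases long and 96.5% identical, and 50.7% of their 31-base words are shared. The first 150 coding bases of both are shown because they let the pair be told apart at only 6 positions, given in capitals.
Acaa1a: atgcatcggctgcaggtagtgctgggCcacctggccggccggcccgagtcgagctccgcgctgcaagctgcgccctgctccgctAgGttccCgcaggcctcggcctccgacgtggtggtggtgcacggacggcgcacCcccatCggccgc
Acaa1b: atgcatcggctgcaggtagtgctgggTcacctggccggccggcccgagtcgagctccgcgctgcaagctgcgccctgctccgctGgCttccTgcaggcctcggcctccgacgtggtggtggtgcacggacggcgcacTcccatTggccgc
Acaa1a had 246, 172, 185, 184 and 198 CPM in germ-free pregnant mice against 178, 222 and 288 CPM in germ-free non-pregnant mice (lowest, median and highest), and 145, 134, 229.9, 186 and 172 CPM in conventional pregnant mice against 195, 237 and 247 CPM in conventional non-pregnant mice. The groups overlapped in both comparisons and neither was called by edgeR (adjusted p = 0.383 in germ-free and 0.116 in conventional mice). DESeq2 called Acaa1a lower in conventional mice (adjusted p = 0.0468). In the averaged comparison Acaa1a fell by 0.30 ± 0.11 (SE; adjusted p = 0.0434), a call that 16 of 22 fits with 1 mouse left out did not keep. How far estimated counts were shared between the 2 thiolase genes was not tested.

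Ehhadh (ENSMUSG00000022853.7, chromosome 16, 21761287 to 21787807, minus strand) encodes the bifunctional enzyme of the middle steps of peroxisomal beta-oxidation. Germ-free pregnant mice had 153, 196, 159, 166 and 181 CPM, against 189, 274 and 365 CPM in germ-free non-pregnant mice. Only the lowest non-pregnant liver reached into the pregnant range, and Ehhadh fell by 0.71 ± 0.17 (SE; adjusted p = 0.00779). Conventional pregnant mice had 244, 128, 242, 172 and 224 CPM, against 217, 286 and 320.5 CPM in conventional non-pregnant mice. The log2 change of -0.45 ± 0.17 was not called by edgeR (adjusted p = 0.103), while DESeq2 called Ehhadh lower there (adjusted p = 0.0413). Germ-free minus conventional, the 2 changes differed by -0.26 ± 0.24 (adjusted p = 0.912), and their mean was a fall of 0.58 ± 0.12 (adjusted p = 0.00115).

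Pex11a (ENSMUSG00000030545.9, chromosome 7, 79735957 to 79743131, minus strand) encodes a membrane protein that promotes the division of peroxisomes. It stood at 41.1, 26.1, 26.0, 26.8 and 24.6 CPM in germ-free pregnant mice, against 24.5, 48.7 and 59.9 CPM in germ-free non-pregnant mice. Pregnant replicate 1 was well above the other 4, and 1 non-pregnant liver, replicate 2, was level with them. Pex11a fell by 0.69 ± 0.21 in germ-free mice (SE; adjusted p = 0.0333), and by 0.82 without that non-pregnant replicate. The call was lost in 8 of 11 fits with 1 mouse left out, where the adjusted p reached 0.0882. In conventional mice it had 42.6, 25.6, 45.3, 34.7 and 36.1 CPM in pregnancy against 42.3, 47.9 and 77.7 CPM in non-pregnant livers, a log2 change of -0.51 ± 0.20 (adjusted p = 0.127). In the averaged comparison Pex11a fell by 0.60 ± 0.15 (adjusted p = 0.0044). Eci2, an isomerase that prepares unsaturated chains, ranged from 152 to 231 CPM in germ-free pregnant against 125 to 260.2 CPM in germ-free non-pregnant mice and from 101 to 194 CPM in conventional pregnant against 167 to 226 CPM in conventional non-pregnant mice, and was not called in germ-free or conventional mice. Its averaged log2 change of -0.33 ± 0.12 missed the threshold (adjusted p = 0.0606), but Eci2 was called lower there with relative-log-expression scaling (0.0447), without mitochondrially encoded genes (0.0454), by DESeq2 (0.0236) and with a replicate block (0.0298).

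The 250 bases before the start of Acaa1b and Ehhadh are shown because both peroxisomal genes fell in germ-free mice (RefSeq, GRCm38.p6, chr9:119157094-119157343 and chr16:21787835-21788084, both read from the minus strand). They were searched on both strands for the direct repeat bound by PPAR-alpha with its partner RXR, AGGTCA followed by any 1 base and AGGTCA again, allowing 2 mismatches in all, and neither holds a match. No match says only that these letters are not in this window. The bases of the Acaa1b window were 41.6% G or C and those of the Ehhadh window 60.4%.
Acaa1b: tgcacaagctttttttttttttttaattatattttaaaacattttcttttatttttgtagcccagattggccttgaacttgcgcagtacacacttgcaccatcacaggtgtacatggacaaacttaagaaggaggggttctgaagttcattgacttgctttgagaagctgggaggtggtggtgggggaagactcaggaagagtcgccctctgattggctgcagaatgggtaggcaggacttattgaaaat
Ehhadh: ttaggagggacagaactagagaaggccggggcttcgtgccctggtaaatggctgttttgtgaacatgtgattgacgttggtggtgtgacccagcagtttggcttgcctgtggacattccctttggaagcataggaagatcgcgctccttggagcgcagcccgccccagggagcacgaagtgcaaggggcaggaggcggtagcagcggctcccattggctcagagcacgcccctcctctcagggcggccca
Across the members, 30 of 35 had a window in the promoter table and 4 of those (13.3%) held a match, Fabp1, Acot4, Creb3l3 and Etfa, beside 1005 of 27025 genes (3.72%).

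**Figure D3:**
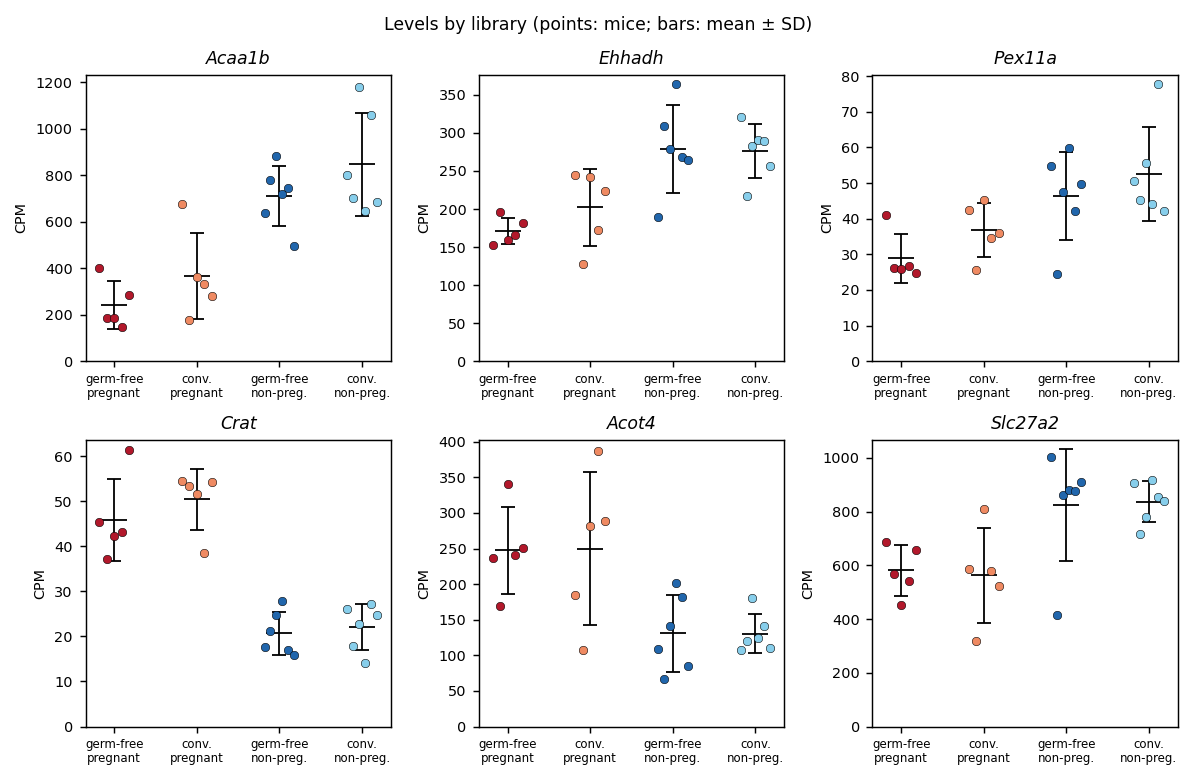
Level in CPM (y axis) of Acaa1b, Ehhadh, Pex11a, Crat, Acot4 and Slc27a2 in each mouse (points) of the 4 groups, with bars at the mean ± SD of 5 pregnant or 6 non-pregnant mice. Crat is at 37.1 CPM or more in all pregnant livers and at 27.9 CPM or less in all non-pregnant ones, and in germ-free mice Acaa1b is at 401 CPM or less in pregnancy and at 498 CPM or more outside it.

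Crat (ENSMUSG00000026853.15, chromosome 2, 30400471 to 30415813, minus strand), carnitine acetyltransferase, moves acetyl groups between CoA and carnitine and was the member with the smallest adjusted p in both pregnancy comparisons. Its level was 45.3, 37.1, 42.4, 43.2 and 61.2 CPM in germ-free pregnant mice, against 15.9, 19.4 and 27.9 CPM in germ-free non-pregnant mice. It was 54.4, 53.4, 51.5, 38.5 and 54.3 CPM in conventional pregnant mice, against 14.0, 23.7 and 27.1 CPM in conventional non-pregnant mice. No pregnant liver overlapped with a non-pregnant one in either comparison. Groups without overlap were found for 5 of 35 members in germ-free mice, Crat, Acads and Hadh higher and Acaa1b and Acadm lower, beside 8.47% of all tested genes (5.66% higher and 2.81% lower). In conventional mice Crat was the 1 such member of 35, beside 4.96% of all tested genes (2.57% higher and 2.39% lower). Crat rose by 1.15 ± 0.18 in germ-free mice (SE; adjusted p = 9.26e-05) and by 1.19 ± 0.18 in conventional mice (adjusted p = 8.06e-05). Germ-free minus conventional, these differed by -0.05 ± 0.25 (adjusted p = 0.986).

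The other carnitine shuttle genes were not called in any comparison. Cpt1a, the outer membrane transferase that controls entry of long chains into mitochondria, had 234, 290.2, 230.1, 270.4 and 315 CPM in germ-free pregnant mice against 177, 321 and 376 CPM in germ-free non-pregnant livers, and 211, 108, 285, 164 and 218 CPM in conventional pregnant mice against 194, 217 and 318 CPM in conventional non-pregnant mice. Pregnant and non-pregnant livers overlapped widely, with log2 changes of -0.17 ± 0.21 in germ-free mice (adjusted p = 0.677) and -0.26 ± 0.21 in conventional mice (adjusted p = 0.533). The conventional change was -0.10 without pregnant replicate 2 and -0.43 without pregnant replicate 3 (adjusted p = 0.86 and 0.242), and the germ-free change was -0.29 without non-pregnant replicate 2 (0.414). Cpt2, its partner on the inner membrane, and Slc25a20, the carrier between them, had changes of 0.07 and 0.02 in germ-free mice and 0.08 and 0.07 in conventional mice. Without germ-free non-pregnant replicate 2 the germ-free change of Slc25a20 was -0.07.

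The 3 acyl-CoA thioesterase genes, whose products split acyl-CoA back into fatty acid and CoA, had positive changes with pregnancy in both comparisons. In each, 1 of 3 rose, beside 7.15% of all tested genes in germ-free and 5.49% in conventional mice. The 3 genes lie side by side on chromosome 12 within 60.7 kb (83987861 to 84048601). Acot4 (ENSMUSG00000052392.5), a peroxisomal thioesterase, had 237, 169, 340.1, 241 and 251 CPM in germ-free pregnant mice, against 67.0, 125 and 202 CPM in germ-free non-pregnant mice. In conventional mice it had 185, 108, 282, 387 and 289 CPM in pregnancy, against 108, 122 and 180.1 CPM outside it. In each comparison 4 of 5 pregnant livers exceeded every non-pregnant one, and the exception was replicate 2 in both. Acot4 rose by 0.92 ± 0.28 in germ-free mice (SE; adjusted p = 0.0377) and by 0.94 ± 0.28 in conventional mice (adjusted p = 0.0389). Without conventional pregnant replicate 2 the rise was 1.13 (adjusted p = 0.00811), and without germ-free non-pregnant replicate 2 the germ-free call was lost (adjusted p = 0.0767). Of the fits with 1 mouse left out, 7 of 11 lost the call in germ-free mice (adjusted p up to 0.123) and 8 of 11 in conventional mice (up to 0.128), as did the fit of only the 2 conventional groups (0.0653).

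Acot2, the mitochondrial thioesterase, had 15.5, 15.1, 11.9, 11.2 and 17.9 CPM in germ-free pregnant mice against 4.64, 8.76 and 15.3 CPM in germ-free non-pregnant livers, and 14.6, 9.63, 12.6, 11.8 and 17.6 CPM in conventional pregnant mice against 6.09, 7.50 and 11.0 CPM in conventional non-pregnant mice. Neither comparison was called alone (adjusted p = 0.0879 in germ-free and 0.0607 in conventional mice), and in the averaged comparison Acot2 rose by 0.68 ± 0.17 (SE; adjusted p = 0.00502). In conventional mice Acot2 was called higher by DESeq2 (adjusted p = 0.0468) and in the fit of only the 2 conventional groups (0.0362). Acot1, the cytosolic enzyme, had log2 changes of 0.21 ± 0.28 in germ-free mice (adjusted p = 0.709) and 0.70 ± 0.28 in conventional mice (adjusted p = 0.121). Without conventional pregnant replicate 2 both were called higher in conventional mice, Acot1 at 0.91 (adjusted p = 0.0214) and Acot2 at 0.81 (adjusted p = 0.0487). The reading frames of Acot1 and Acot2 are 85.5% identical and share 52.4% and 48.4% of their 31-base words, so their separate levels are uncertain. Acot1 and Acot4 are 73.6% identical and share 11.3% and 11.2%. Acot1 and Acot3, a gene of the wider list, are 81.4% identical and share 21.6% and 21.0%. Acot4 was not compared with Acot3, and sharing of reads between them was not tested.

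The Acot4 and Fabp1 windows are shown because each holds a match to the PPAR-alpha motif, Fabp1 the closest among the members and Acot4 that of a member called in both comparisons (RefSeq, GRCm38.p6, plus strand, chr12:84038129-84038378 and chr6:71199629-71199878), with the match in capitals. The match lies on the opposite strand in both, begins 13 bases before the start of Acot4 and 67 bases before that of Fabp1, and has 2 mismatches in Acot4 and 1 in Fabp1. A match is a description and not a binding site.
Acot4: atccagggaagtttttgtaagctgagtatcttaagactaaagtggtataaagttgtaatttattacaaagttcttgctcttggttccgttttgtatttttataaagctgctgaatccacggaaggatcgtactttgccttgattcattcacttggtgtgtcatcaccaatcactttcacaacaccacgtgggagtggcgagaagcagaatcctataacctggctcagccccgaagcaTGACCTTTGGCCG
Fabp1: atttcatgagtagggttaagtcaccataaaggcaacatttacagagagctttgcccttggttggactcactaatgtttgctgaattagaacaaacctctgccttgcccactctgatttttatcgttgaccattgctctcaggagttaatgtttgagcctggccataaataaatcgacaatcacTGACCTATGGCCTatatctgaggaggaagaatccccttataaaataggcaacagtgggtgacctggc

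Mitochondrial beta-oxidation showed no common direction. Of its 10 members 6 had positive and 4 negative changes in both comparisons. None was called in germ-free or conventional mice alone in the main fit, beside 10.8% and 9.02% of all tested genes. At an unadjusted p under 0.05 stood 5 and 3 of the 10, in that order, beside 3841 and 3502 of all 15928 tested genes. Other fits called some of them. In germ-free mice DESeq2 called Acadvl and Hadha higher and Acadm lower (adjusted p = 0.0303, 0.0314 and 0.0246). The fit of only the 2 germ-free groups called Acadm lower (0.0153), and a replicate block Hadha higher (0.0417). In conventional mice DESeq2 called Eci1 lower (0.0191). In the averaged comparison 2 rose and 2 fell, beside 11.8% and 8.39% of all tested genes. Acadvl, which starts the oxidation of very long chains, had 352, 384, 467, 465 and 463 CPM in germ-free pregnant mice against 272, 336 and 369 CPM in germ-free non-pregnant livers, and 403, 355, 532, 453 and 424 CPM in conventional pregnant mice against 297, 361 and 394 CPM in conventional non-pregnant mice. In germ-free mice 4 of 5 pregnant livers lay above all non-pregnant ones, and Acadvl rose by 0.32 ± 0.09 in the averaged comparison (SE; adjusted p = 0.0145). Acadm, the medium-chain dehydrogenase, went the other way. It had 174, 166, 147, 186 and 173 CPM in germ-free pregnant mice against 205, 231 and 270.0 CPM in germ-free non-pregnant livers, and 219, 114, 218, 171 and 145 CPM in conventional pregnant mice against 167, 212 and 278 CPM in conventional non-pregnant mice. The germ-free groups did not overlap, and Acadm fell by 0.40 ± 0.11 in the averaged comparison (SE; adjusted p = 0.0166).

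Hadha and Hadhb encode the alpha and beta subunits of the trifunctional protein, which carries out the last 3 steps of the cycle on long chains. Their genes lie head to head on chromosome 5, with RefSeq starts 273 bases apart (30154980 and 30155253). The 250 bases before the Hadhb start, which fill most of that gap, are shown as the stretch between the pair by RefSeq (GRCm38.p6, plus strand, chr5:30155003-30155252). In GENCODE M21 Hadha, on the minus strand, reaches to 30155162, so part of the window lies within the Hadha gene there. The 250 bases hold no match to the motif.
Hadhb: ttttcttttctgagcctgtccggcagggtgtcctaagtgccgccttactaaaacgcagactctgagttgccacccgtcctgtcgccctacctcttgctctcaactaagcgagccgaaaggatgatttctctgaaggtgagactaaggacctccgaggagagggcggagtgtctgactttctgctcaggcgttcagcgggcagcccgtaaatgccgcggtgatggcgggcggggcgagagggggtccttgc
Hadha had 277, 325, 326, 313 and 399 CPM in germ-free pregnant mice against 184, 247 and 304 CPM in germ-free non-pregnant livers, and 348, 274, 375, 328 and 344 CPM in conventional pregnant mice against 198, 268 and 354 CPM in conventional non-pregnant mice. Its averaged change was a rise of 0.40 ± 0.11 (SE; adjusted p = 0.0135). Hadhb had the same sign in both comparisons without being called, at 0.18 ± 0.15 in germ-free and 0.26 ± 0.14 in conventional mice (averaged adjusted p = 0.139).

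Eci1, the mitochondrial isomerase for unsaturated chains, had 121, 117, 127, 92.5 and 108 CPM in germ-free pregnant mice against 122, 134 and 157 CPM in germ-free non-pregnant livers, and 100.2, 69.2, 118, 85.5 and 116 CPM in conventional pregnant mice against 104, 136 and 159 CPM in conventional non-pregnant mice. Most pregnant livers lay low, with some overlap in each comparison, and Eci1 fell by 0.35 ± 0.10 in the averaged comparison (SE; adjusted p = 0.016). The remaining 6 mitochondrial genes were not called in any comparison. Acads and Hadh, which handle short chains, were higher in every germ-free pregnant liver than in every germ-free non-pregnant one (0.28 ± 0.12 and 0.30 ± 0.14, adjusted p = 0.155 and 0.203), and overlapped in conventional mice. Acadl, Acaa2 and Decr1 had averaged changes of 0.06, -0.15 and -0.04. The germ-free change of Acadl was 0.04, and -0.02 without non-pregnant replicate 2. The conventional change of Decr1 was -0.01, and 0.09 without pregnant replicate 2.

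Electrons from the acyl-CoA dehydrogenases pass to the flavoprotein made of the Etfa and Etfb subunits and on to the enzyme encoded by Etfdh. Etfa had 307, 277, 258, 282 and 289 CPM in germ-free pregnant mice against 279, 339 and 383 CPM in germ-free non-pregnant livers, and 304, 172, 273, 271 and 295 CPM in conventional pregnant mice against 291, 324 and 391 CPM in conventional non-pregnant mice. Conventional pregnant replicate 2 was far below the other 4. Etfa fell by 0.28 ± 0.10 in the averaged comparison (SE; adjusted p = 0.0451), and this call was lost without that library and in 14 of the 22 fits that left out 1 mouse. In conventional mice alone DESeq2 called Etfa lower (adjusted p = 0.0459). Etfb and Etfdh had log2 changes of 0.07 and 0.11 in germ-free mice and -0.27 and 0.25 in conventional mice, with no call.

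Of the 3 genes for uptake, binding and activation, Slc27a2 fell in the averaged comparison. It encodes FATP2, a fatty acid transporter that also activates very long chains. Its level was 689, 568, 452, 543 and 657 CPM in germ-free pregnant mice against 415, 878 and 1003 CPM in germ-free non-pregnant livers, and 585, 317, 812, 578 and 522 CPM in conventional pregnant mice against 718, 849 and 919.7 CPM in conventional non-pregnant mice. All 5 germ-free pregnant livers lay below the non-pregnant ones other than replicate 2, and 4 of 5 conventional pregnant livers lay below every non-pregnant one. Slc27a2 fell by 0.54 ± 0.15 in the averaged comparison (SE; adjusted p = 0.0114). It was not called in germ-free mice (adjusted p = 0.135) unless non-pregnant replicate 2 was left out (-0.64, adjusted p = 0.0255). In conventional mice Slc27a2 was not called by edgeR (adjusted p = 0.0927), while DESeq2 called it lower (-0.599, adjusted p = 0.0309).

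Fabp1, the most abundant member, had 1862 to 4590 CPM in germ-free pregnant mice against 1736 to 4417 CPM in germ-free non-pregnant livers, and 2353 to 5075 CPM in conventional pregnant mice against 1899 to 5389 CPM in conventional non-pregnant mice. Its changes of -0.17 ± 0.29 in germ-free mice (adjusted p = 0.768) and 0.13 ± 0.29 in conventional mice (adjusted p = 0.85) were not called. Acsl1, the main long-chain acyl-CoA synthetase of liver, had changes of 0.40 ± 0.22 in germ-free and 0.38 ± 0.22 in conventional mice (averaged adjusted p = 0.0785).

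The receptor and its signals were variable from mouse to mouse. Ppara itself (ENSMUSG00000022383.13, chromosome 15, 85734983 to 85802819, plus strand) had 27.2, 33.4, 55.0, 41.5 and 56.4 CPM in germ-free pregnant mice against 17.9, 32.8 and 37.6 CPM in germ-free non-pregnant livers, and 44.6, 13.9, 72.2, 53.6 and 36.2 CPM in conventional pregnant mice against 13.5, 35.5 and 42.7 CPM in conventional non-pregnant mice. The groups overlapped in both comparisons, and conventional pregnant mice held both the highest level of all libraries and, in replicate 2, one near the lowest. The changes of 0.54 ± 0.34 in germ-free mice (adjusted p = 0.348) and 0.49 ± 0.34 in conventional mice (adjusted p = 0.436) were not called. Creb3l3 had changes of 0.16 ± 0.19 in germ-free and 0.26 ± 0.19 in conventional mice, and of 0.04 and 0.41 without the low replicate 2 of germ-free non-pregnant and of conventional pregnant mice, in that order. Those of Vnn1, a pantetheinase gene that follows PPAR-alpha activity, were 0.52 ± 0.30 in germ-free and 0.59 ± 0.30 in conventional mice. Pdk4 had -0.06 ± 0.45 in germ-free mice, or 0.20 without non-pregnant replicate 2, and 0.87 ± 0.44 in conventional mice. None of the 3 was called in the main fit. Vnn1 was called in the averaged comparison with a replicate block (0.54, adjusted p = 0.0367) and without both of those replicates (0.55, adjusted p = 0.0183). Without both it was also called in conventional mice (0.76, adjusted p = 0.0435).

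Fgf21 (ENSMUSG00000030827.5, chromosome 7, 45613886 to 45615490, minus strand), the liver hormone of fasting, was scarce in nearly all livers. It had 1.16, 0.124, 0, 1.40 and 0.0479 CPM in germ-free pregnant mice against 0.186, 0.608 and 1.02 CPM in germ-free non-pregnant livers, and 0.497, 25.9, 1.00, 0.383 and 0.523 CPM in conventional pregnant mice against 0.0984, 0.402 and 0.946 CPM in conventional non-pregnant mice. A single conventional pregnant liver, replicate 2, stood far above all others. The log2 change of 3.43 ± 1.01 in conventional mice passed the threshold (adjusted p = 0.0346), but without replicate 2 it was 0.19 (adjusted p = 0.946), and in germ-free mice it was -0.17 ± 1.06 (adjusted p = 0.945). The Fgf21 call in conventional mice therefore rests on the mouse with high Saa1 and Saa2.

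**Figure D4:**
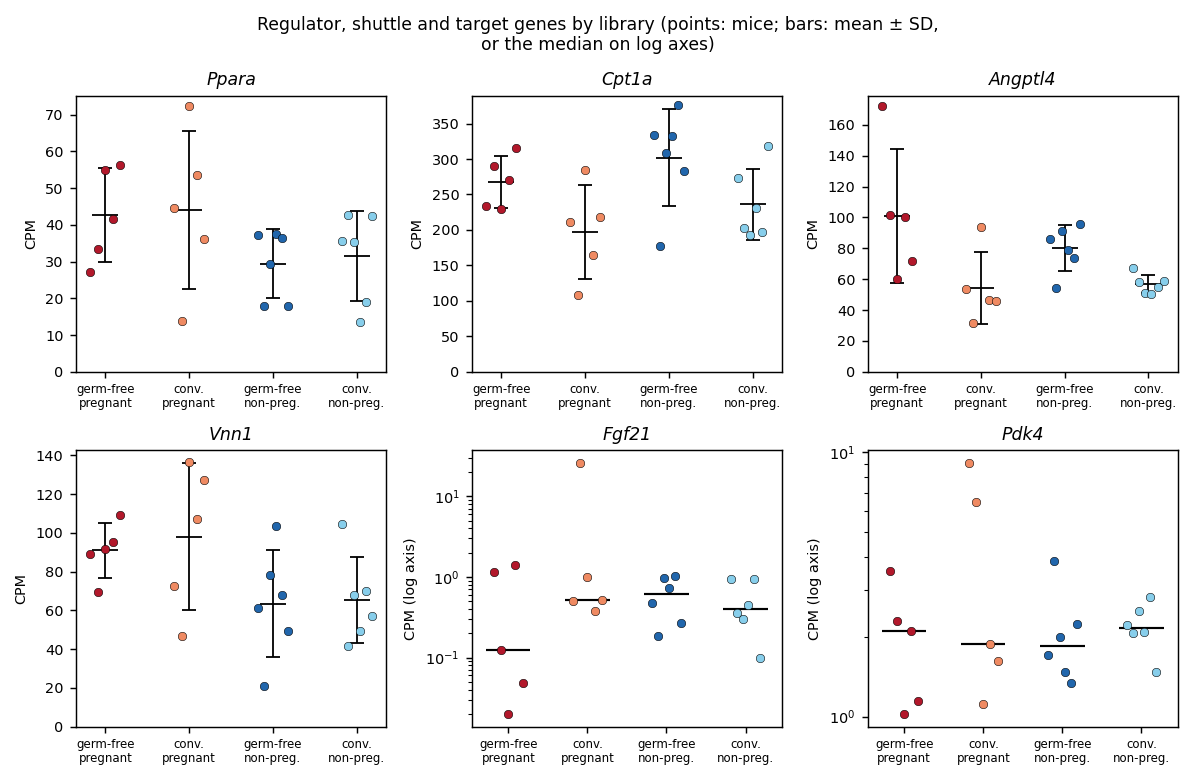
Level in CPM (y axis) of Ppara, Cpt1a, Angptl4, Vnn1, Fgf21 and Pdk4 in each mouse (points) of the 4 groups, with bars at the mean ± SD, or at the median for Fgf21 and Pdk4, which have log axes and where a library at 0 is drawn at 0.02 CPM. Pregnant and non-pregnant mice overlap for all 6 genes, and the single Fgf21 point at 25.9 CPM is conventional pregnant replicate 2.

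Bdh1, which turns acetoacetate into beta-hydroxybutyrate, ranged over 189.6 to 237 CPM in germ-free pregnant mice against 152 to 342 CPM in germ-free non-pregnant mice, and over 155 to 231 CPM in conventional pregnant mice against 158 to 279.7 CPM in conventional non-pregnant mice. Its log2 changes were -0.23 ± 0.18 in germ-free mice (adjusted p = 0.474) and -0.17 ± 0.18 in conventional mice (adjusted p = 0.654).

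Across a wider list of genes of the same pathways, 78 tested genes outside the 35, 9 rose and 9 fell in germ-free mice and 9 rose and 13 fell in conventional mice. Among its 21 peroxisomal genes 3 rose and 4 fell in germ-free mice and 2 rose and 5 fell in conventional mice. Of all tested genes, 7.15% rose and 3.6% fell in germ-free mice, and 5.49% rose and 3.52% fell in conventional mice. The shares of the wider list and of its peroxisomal genes were above these, in a list chosen with earlier results of these data known.

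No member passed the test for germ-free status. In pregnant mice 0 of 35 members were called, where 0.132% of all tested genes were. At an unadjusted p under 0.05 stood 3 members, beside 1672 of all 15928 tested genes, and DESeq2 called 0 members, beside 108 genes. In non-pregnant mice 0 of 35 were called, where 0.157% of all tested genes were. There 1 member, beside 957 genes, stood at an unadjusted p under 0.05, and DESeq2 called 0 members, beside 117 genes. The smallest adjusted p of a member was 0.212 in pregnant and 0.795 in non-pregnant mice, and in both it belonged to Angptl4, a secreted inhibitor of lipoprotein lipase. Angptl4 had 172, 102, 60.1, 101 and 72.0 CPM in germ-free pregnant mice, against 53.9, 31.5, 93.5, 46.4 and 46.0 CPM in conventional pregnant mice. It had a lowest, median and highest of 54.3, 82.2 and 96.1 CPM in germ-free non-pregnant mice, against 50.7, 56.7 and 67.2 CPM in conventional non-pregnant mice. In pregnancy a single conventional liver, replicate 3, lay above the lowest germ-free one. The log2 differences were 0.90 ± 0.25 in pregnant and 0.49 ± 0.23 in non-pregnant mice (SE), and the first was called only without conventional pregnant replicate 3 (1.19, adjusted p = 0.0462). Its log2 change with pregnancy was -0.07 in conventional mice, and 0.08 without pregnant replicate 2.

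Pdk4 had 3.55, 2.30, 1.02, 2.10 and 1.15 CPM in germ-free pregnant mice, against 9.08, 6.48, 1.11, 1.88 and 1.62 CPM in conventional pregnant mice, where replicates 1 and 2 lay above every germ-free liver and the other 3 within their range. Its log2 difference in pregnant mice was -1.01 ± 0.47 (SE; adjusted p = 0.456). Non-pregnant mice had a lowest, median and highest of 1.34, 1.85 and 3.86 CPM when germ-free, against 1.48, 2.16 and 2.84 CPM in conventional ones, with a difference of -0.07 ± 0.42 (adjusted p = 0.999).

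Cpt1a differed by 0.44 ± 0.22 in pregnant and 0.36 ± 0.20 in non-pregnant mice, and Acaa1b by -0.60 ± 0.29 in pregnant and -0.25 ± 0.27 in non-pregnant mice, in each case germ-free over conventional (adjusted p at least 0.478). The difference of -3.37 ± 1.10 for Fgf21 in pregnant mice (adjusted p = 0.291) went with the high level in conventional pregnant replicate 2. The test of whether pregnancy acted differently in germ-free and conventional mice called 0 of 35 members (1 at an unadjusted p under 0.05, 0 by DESeq2) and 0 of 15928 genes (903 at an unadjusted p under 0.05, 7 by DESeq2), a background of 0%. The smallest adjusted p of a member was 0.863. A p that misses the threshold does not show that germ-free and conventional mice responded alike.

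**Figure D5:**
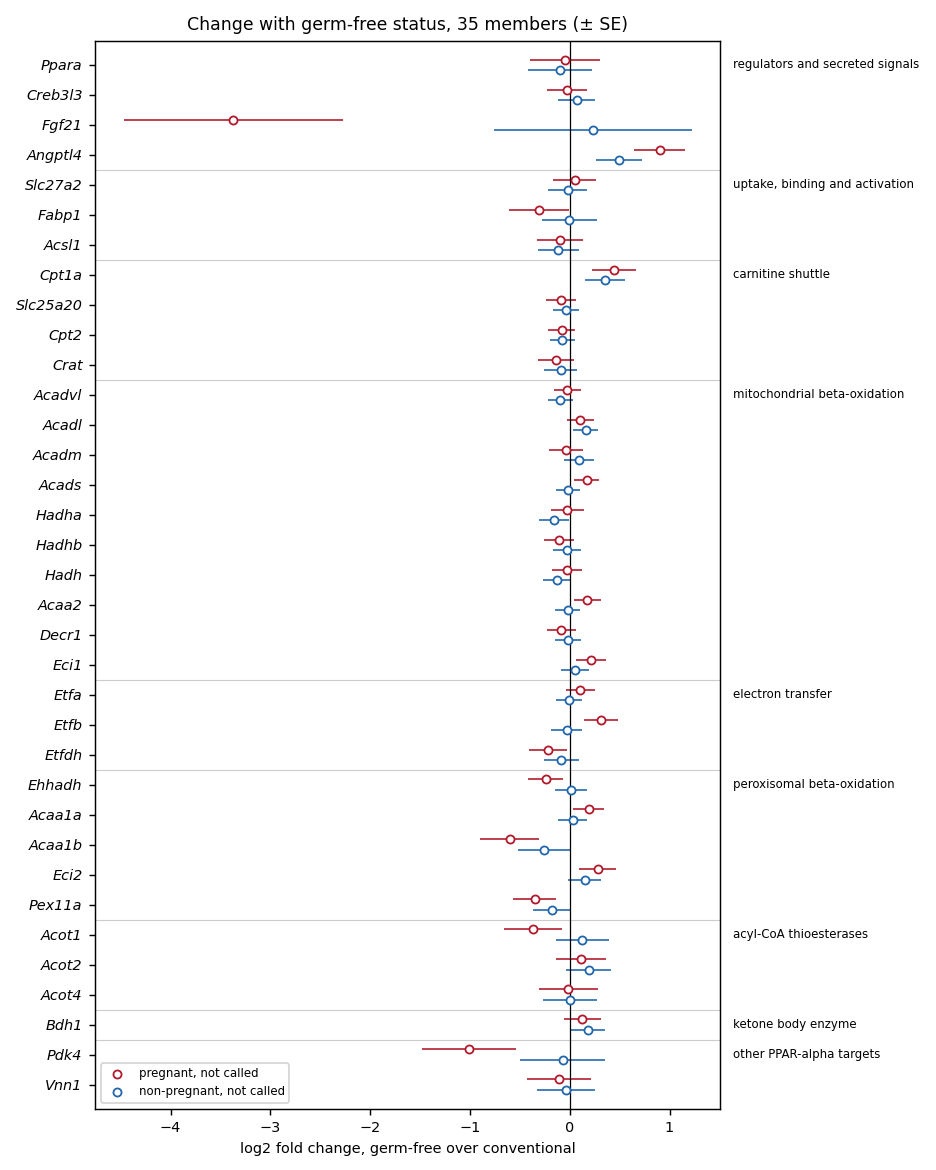
Log2 fold difference with germ-free status (x axis, germ-free over conventional, ± SE) for the 35 members in rows, grouped by role, in pregnant mice (red, 5 against 5) and non-pregnant mice (blue, 6 against 6). All points are open because none passed the adjusted p threshold of 0.05, and the Fgf21 point at -3.37 goes with 1 high conventional pregnant liver.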

How the data were processed

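Per the labels' protocols, livers were snap-frozen, total RNA was extracted and libraries were made with a NEBNext Ultra kit. The deposited table holds the authors' estimated counts per gene, not normalised. The submitters' processing notes list GRCm38.p6 as the genome build, and as tools edgeR 3.24.3 and Salmon 0.11.3. The annotation release and any use of strand in counting are not given in the sources used here, so reads of genes that overlap on opposite strands cannot be told apart. The counts were rounded to whole numbers, which moved 0.00829% of the summed counts. Genes were kept by filterByExpr (minimum count 10, minimum total 15) and scaled by TMM. One model with a term for each of the 4 groups was fitted over 22 libraries with edgeR 4.0.16 (R 4.3.3), and quasi-likelihood tests were adjusted by Benjamini-Hochberg over 15928 genes, with a threshold of 0.05. The SE of a log2 change is its size divided by the square root of F. CPM use the scaled library sizes. The tests were first run on simulated data with known changes.

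Alternatives were other size factors, no filter, DESeq2 1.42.0, fits of the 2 compared groups only, leaving out mitochondrially encoded genes, a replicate block and leaving out each mouse. The averaged comparison, and the fits without conventional pregnant replicate 2 and germ-free non-pregnant replicate 2 together, were added after the data had been seen. No 2 libraries of a group were repeats of each other. Exon lengths and coordinates come from GENCODE M21 and promoter windows from RefSeq. Values were given in full for members called in a comparison, for Ppara and Cpt1a, and for the members with the largest germ-free difference. From the wider list, at most 2 called genes with the largest change in each comparison were named, and others are marked where they occur. Some genes that the rule would name are not reported here. Members and lists were chosen with earlier results of these data known. Of 80 further genes listed, 79 had a row and 78 were tested.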

Additional observations from a re-analysis of the deposited data

Results flagged for a closer look

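A single mouse stood apart from the rest of its group for 10 of the 140 combinations of a member and a group, by the gap to the nearest mouse over the group's whole range; chance gives about 1 in 20. The level was the lowest of its group in 7 of them. Germ-free non-pregnant replicate 2 accounted for 5, with 115 CPM of Creb3l3 (190.0 to 241 CPM in the others), 415 CPM of Slc27a2 (863 to 1003 CPM), 62.7 CPM of Slc25a20 (91.9 to 115 CPM), 272 CPM of Acadvl (329 to 369 CPM) and 125 CPM of Eci2 (222 to 260.0 CPM).

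Conventional pregnant replicate 2 had 25.9 CPM of Fgf21, where the other 4 had 0.383 to 1.00 CPM, and 172 CPM of Etfa, where they had 271 to 304 CPM. Conventional pregnant replicate 4 had 38.5 CPM of Crat against 51.5 to 54.4 CPM in the others, which was still above every non-pregnant liver. Germ-free pregnant replicate 1 had 41.1 CPM of Pex11a against 24.6 to 26.8 CPM, and conventional non-pregnant replicate 5 had 59.7 CPM of Acot1 against 29.2 to 37.7 CPM.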

How the results depend on the processing

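No called change, and no pregnancy change of Ppara or Cpt1a, turned direction under the alternatives run, while some uncalled changes of other members did. In germ-free mice pregnancy called 5 members, 8 by DESeq2 and 3 to 7 with 1 mouse left out. Over all tested genes these counts were 1713, 2129 and 1202 to 2090. In conventional mice pregnancy called 4 members, 9 by DESeq2 and 2 to 6 with 1 mouse left out. Over all tested genes these were 1436, 1886 and 1046 to 1802. The averaged comparison called 13 members, and 11 to 17 with 1 mouse left out, beside 3220 and 2726 to 3740 genes. Germ-free status called 0 members in pregnant mice (0 to 1) and 0 in non-pregnant mice (0 to 0), and the interaction 0 (0 to 0).

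Crat and Acaa1b in both pregnancy comparisons and Ehhadh in germ-free mice kept their calls in all 11 fits that left out 1 mouse. Pex11a in germ-free mice lost its call in 8 of 11 (kept without non-pregnant replicates 2 or 5 or pregnant replicate 1, adjusted p 0.00483 to 0.0882). Acot4 lost it in 7 of 11 in germ-free mice (kept without pregnant replicates 1 or 2 or non-pregnant replicates 4 or 5, adjusted p 0.0179 to 0.123) and in 8 of 11 in conventional mice (kept without pregnant replicates 1 or 2 or non-pregnant replicate 3, adjusted p 0.00811 to 0.128). Fgf21 lost it without conventional pregnant replicate 2 and without non-pregnant replicates 2 to 6, each left out alone, and when only the 2 conventional groups were fitted (adjusted p = 0.0862), as did Acot4 in that fit (0.0653). Of the averaged calls, Etfa lost its call in 14 of 22 such fits and Acaa1a in 16. With no filter on low counts the averaged calls of Acadvl, Hadha, Etfa and Acaa1a were lost (adjusted p 0.134, 0.0714, 0.0743 and 0.063). Without conventional pregnant replicate 2 and germ-free non-pregnant replicate 2 together, 7 members were called in germ-free mice, 6 in conventional mice and 18 in the averaged comparison. The causes of these losses were not tested.

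Mice of different groups share replicate numbers, and the labels do not say that the numbers pair them. Deviations of same-numbered mice had correlations of -0.255 to 0.307 over 21 pairs, 5 of them over 0.1. All pairs of germ-free pregnant and non-pregnant mice were positive, at 0.0044 to 0.147, and the highest value was that of replicate 2 of the non-pregnant groups. Whether same-numbered mice shared a batch was not tested. With the replicate block 6 members were called in germ-free mice, 3 in conventional mice (Fgf21 was not, adjusted p = 0.411), 14 in the averaged comparison, and 0 in the germ-free comparisons and the interaction.

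Over all genes, 1436 were called for pregnancy in conventional mice and 890 when only those 2 groups were fitted. Germ-free status called 21 genes in pregnant mice (108 by DESeq2, 35 with no filter, 5 in the fit of those groups, 5 to 28 with 1 mouse left out) and 25 in non-pregnant mice (117 by DESeq2, 40 without both replicates named above, 10 to 29 with 1 left out). The interaction called 0 genes, 7 by DESeq2, 2 with no filter, 1 with the replicate block and 0 to 2 with 1 left out. It and the averaged comparison have no 2-group fit. Depth limits Fgf21, at 0 to 30 counts in 21 of 22 libraries.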

Other observations

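The largest pregnancy change in the wider list was that of Slc16a6, a monocarboxylate transporter gene whose zebrafish counterpart exports ketone bodies from the liver. It averaged 64.6 ± 19.8 CPM in germ-free pregnant mice and 4.42 ± 0.959 CPM in germ-free non-pregnant livers, and 69.2 ± 21.5 CPM in conventional pregnant mice and 3.53 ± 1.09 CPM in conventional non-pregnant mice (SD, n = 5 and 6 in each pair). No pregnant liver overlapped with a non-pregnant one. It rose by 3.87 ± 0.27 in germ-free mice (SE; adjusted p = 1.25e-09) and by 4.28 ± 0.27 in conventional mice (adjusted p = 3.15e-10). Conventional pregnant livers spanned 33.8 to 85.6 CPM, the one with high Saa1 and Saa2 included, against 1.71 to 4.72 CPM in conventional non-pregnant livers. Eci3, a close relative of Eci2, was next, with 13.8 ± 5.97 CPM in germ-free pregnant and 2.15 ± 2.63 CPM in germ-free non-pregnant livers, and 19.9 ± 8.09 CPM in conventional pregnant and 3.25 ± 1.95 CPM in conventional non-pregnant mice. It rose by 2.67 ± 0.60 in germ-free mice (adjusted p = 0.0042) and by 2.61 ± 0.58 in conventional mice (adjusted p = 0.00553), while Eci2 had negative changes. Reads of these 2 relatives may be hard to assign, which was not tested.

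Of genes chosen after their values were seen, Nudt7, which encodes a peroxisomal hydrolase that breaks down CoA, averaged 38.0 ± 10.9 CPM in germ-free pregnant and 126 ± 39.3 CPM in germ-free non-pregnant livers, and 54.3 ± 8.38 CPM in conventional pregnant and 204 ± 32.6 CPM in conventional non-pregnant mice (SD). It fell by 1.73 ± 0.22 in germ-free mice (SE; adjusted p = 6.83e-06) and by 1.91 ± 0.22 in conventional mice (adjusted p = 2.51e-06), with no overlap in either comparison. Ppargc1a, the coactivator of PPAR-alpha that drives mitochondrial gene expression, was low in level and fell in both: it had 5.69 ± 1.74 CPM in germ-free pregnant and 12.6 ± 2.78 CPM in germ-free non-pregnant mice (log2 change -1.14 ± 0.25, adjusted p = 0.00346), and 3.85 ± 1.56 CPM in conventional pregnant and 7.81 ± 1.81 CPM in conventional non-pregnant mice (-1.02 ± 0.25, adjusted p = 0.0116). Bdh2, a cytosolic dehydrogenase that shares its name with Bdh1, fell by 0.96 ± 0.21 in germ-free mice (adjusted p = 0.0042) and by 1.00 ± 0.22 in conventional mice (adjusted p = 0.00444).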
